A study of Mus musculus with 3 samples.

Results

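The mitochondrially encoded genes of the mouse dentate gyrus were described as a group, taking every gene whose symbol starts with mt- in 3 single-cell count tables. The tables listed 31 such symbols among 15535 genes in all: 13 protein genes, 2 rRNA genes and 16 of the 22 annotated tRNA genes. Of these, 29 were listed for control, 30 for runner and 31 for aged. mt-Tw was listed for aged alone, and mt-Ty for runner and aged. Of the 31 members, 25 had at least 100 UMIs (unique molecular identifiers, 1 per captured RNA molecule) over the libraries and were compared one by one.

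The dentate gyrus is the hippocampal region where new granule neurons form in the adult. It was dissected, digested with trypsin and profiled without a described cell sort by 10x Genomics 3' droplet sequencing. There was 1 library per group: control mice of 8 weeks in standard housing, runner littermates of 8 weeks with 12 days of access to a running wheel, and aged mice of 14 months without a wheel. All 3 labels give the strain as hGFAP-eGFP, a line in which the GFAP promoter of astrocytes and neural stem cells drives a green fluorescent protein, whereas the series' own description has WT mice, with the reporter given only for the 14-month group. The sources used here do not give how many mice went into a library. With 1 library per group there is no test between groups, and group and library cannot be told apart. Intervals in parentheses are exact 95% intervals that cover counting error alone.

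The mitochondrial genome is a small circle, transcribed from both strands into long precursors that are cut at the tRNAs into mRNAs and rRNAs. Its protein genes encode subunits of complex I (mt-Nd genes), complex III (mt-Cytb), complex IV (mt-Co genes) and ATP synthase (mt-Atp genes), and all other subunits of these complexes come from nuclear genes. Most of the mRNAs and both rRNAs carry a tail of A bases, which a poly(A) capture can bind, whereas mature tRNAs end in CCA.

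Barcodes with at least 200 genes were used, 2303 for control, 2959 for runner and 2270 for aged. They carried 596801, 809264 and 822280 mt- UMIs, or 26.2%, 22.8% and 34.0% of all UMIs. The libraries shared 8 to 10 barcodes pairwise. Every value below is the share of a gene among the mt- UMIs of a set of barcodes, unless another scale is named, so that a higher share of 1 gene lowers the shares of the others.

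Several members have near-identical copies in the nuclear genome, and their counts are uncertain. In the GENCODE M21 annotation of GRCm38, 7 unprocessed pseudogenes on the minus strand of chr1:24611535-24616197 match 7 mt- genes at 99% or more. They follow the order of the mitochondrial genome, and 5 of the 6 gaps between them have the length found between the mt- genes. Gm28661 matched 681 of the 684 bases of mt-Co2, Gm10925 matched 678 of the 681 bases of mt-Atp6 and Gm28437 matched 783 of the 784 bases of mt-Co3, each without a mismatch. The 60 bases at the 3′ end of these genes are shown because reads of a 3' library fall near such ends, with capitals for the bases past the end of the annotated copy.
mt-Co2: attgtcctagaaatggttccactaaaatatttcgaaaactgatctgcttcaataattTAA
mt-Atp6: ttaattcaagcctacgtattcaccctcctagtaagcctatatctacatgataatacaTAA
mt-Co3: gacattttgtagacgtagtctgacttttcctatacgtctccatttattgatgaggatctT
Gm28438 matched 345 bases of mt-Nd3 with 1 mismatch, T3C, counted from 1 at the 5′ end of mt-Nd3, with the base of mt-Nd3 first. The first 60 bases of both are shown with that base in capitals, because the tables assign nearly all of their UMIs to the copy.
mt-Nd3: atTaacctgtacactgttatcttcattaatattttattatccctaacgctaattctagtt
Gm28438: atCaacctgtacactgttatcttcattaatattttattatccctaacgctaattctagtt
Gm29216 matched the last 483 bases of mt-Co1 with 1 mismatch, A1066T, counted in the same way along mt-Co1. Gm10222 matched 294 bases of mt-Nd4l and Gm28439 the first 876 bases of mt-Nd4 without a mismatch, and neither copy is listed in the tables.

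mt-Atp8, the gene the comparison of barcodes turns on, lies at chrM:7766-7969 on the plus strand and shares an mRNA with mt-Atp6. Its 204 bases are shown with the 43 that also belong to mt-Atp6 in capitals.
mt-Atp8: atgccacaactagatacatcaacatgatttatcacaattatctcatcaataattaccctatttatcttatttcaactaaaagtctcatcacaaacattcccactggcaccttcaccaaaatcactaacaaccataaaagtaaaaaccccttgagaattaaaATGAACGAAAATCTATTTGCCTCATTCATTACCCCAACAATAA
An annotated copy, Gm10925, covers those 43 bases alone. The gap between Gm28661 and Gm10925 on chromosome 1 is 233 bases, as is the gap between the matching stretches of mt-Co2 and mt-Atp6, in which the rest of mt-Atp8 lies. The sequence of that gap was not used here.

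mt-Nd1, a core subunit of complex I, took the largest share of mt- UMIs, 25.4% (25.3 to 25.5) in control, 21.6% in runner and 21.8% in aged. mt-Cytb, the only mitochondrially encoded subunit of complex III, took 20.7%, 18.3% and 16.7%. mt-Rnr2, the rRNA of the large mitochondrial ribosome subunit, took 15.8%, 16.6% and 20.1%. These 3 genes led in all 3 libraries, and mt-Nd4 of complex I followed in control and aged with 10.8% each, while in runner it had 10.2%. When UMIs were divided by gene length, the shares of the length-scaled sum were 26.9%, 22.1% and 22.6% for mt-Nd1 and 18.3%, 15.6% and 14.5% for mt-Cytb in control, runner and aged. On that scale mt-Atp6, the proton channel subunit of ATP synthase, stood at 7.13% in control, 19.3% in runner and 10.7% in aged, above mt-Cytb in runner alone. By share mt-Atp6 took 13.4% in runner, below mt-Cytb at 18.3%. UMIs of a 3' library count captured molecules and need not scale with gene length, so the length-scaled order does not rank abundance.

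Subunits of the same complex differed widely in share. Within complex IV, mt-Co1, the catalytic subunit, took 8.43% of mt- UMIs in control, 4.69% in runner and 6.76% in aged. mt-Co2, which accepts electrons from cytochrome c, took 0.263%, 0.927% and 0.456%. mt-Co3, a structural core subunit, took 0.226%, 0.681% and 0.349%. Scaled to length, mt-Co1 stood at 5.52%, 2.97% and 4.35%, against at most 1.33% for mt-Co2 and 0.851% for mt-Co3. By counted UMIs mt-Co1 thus led complex IV in each library. Nuclear copies match 681 bases of mt-Co2 and 783 bases of mt-Co3 without a mismatch. For mt-Co1 such a copy, Gm29216, covers the last 483 bases alone, with 1 mismatch. How far the copies lowered the count of each gene was not tested, so this order does not rank abundance. mt-Nd3 of complex I was the lowest protein gene by UMIs listed for the gene itself, with 57 UMIs in control, 341 in runner and 201 in aged.

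Among the genes with a listed copy at 99% or more, mt-Nd3 had the largest part of its UMIs on the copy. Gm28438 carried 6582 UMIs in control, 5448 in runner and 7362 in aged, which was 99.1%, 94.1% and 97.3% of the UMIs of the pair. Of the UMIs of mt-Co3 and Gm28437 together, 13.1%, 6.18% and 7.69% lay on the copy, and for mt-Co2 and Gm28661 7.27%, 3.62% and 5.08%. For mt-Atp6 and Gm10925 the share on the copy was 1.57%, 0.556% and 0.795%, and for mt-Co1 and Gm29216 it was 0.447%, 1.13% and 0.578%. Gm13341, a copy of mt-Co2 on chromosome 2 at 95.9% identity, held 10.8%, 1.38% and 3.30% of the UMIs it shares with mt-Co2. The sources used here do not say how reads were divided between a gene and its copy, and the part of this division in the results was not tested.

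rRNA took 19.5% of mt- UMIs in control, 21.1% in runner and 25.2% in aged, and tRNA 0.149%, 0.169% and 0.265%. mt-Ta and mt-Td were the most counted tRNA genes, with 968 and 885 UMIs over the libraries, and 6 tRNA genes stayed under 100. The 7 members on the minus strand, mt-Nd6 of complex I and 6 tRNA genes, took 0.224%, 0.239% and 0.281%. Members of the minus strand therefore made up a small part of the mt- UMIs in each library.

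**Figure D1:**
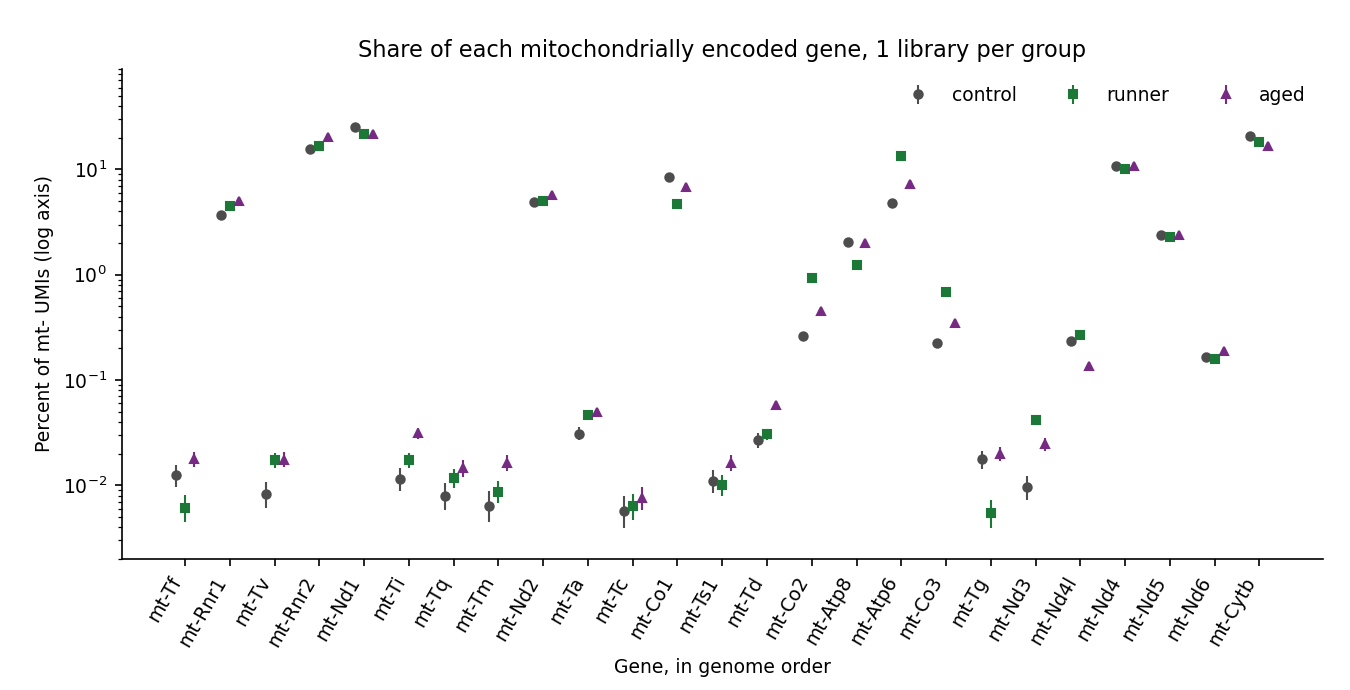
Share of each member with at least 100 UMIs among the mt- UMIs of a library, on a log axis, in genome order; points are libraries and bars are 95% counting intervals. mt-Nd1, mt-Cytb and mt-Rnr2 lie highest in all 3 libraries, and mt-Atp6, mt-Co2 and mt-Co3 are ordered control, aged, runner from low to high.

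The mitochondrial share of a barcode was used to ask whether barcodes rich in mt- UMIs hold the same mix of mt- RNAs as barcodes poor in them. Barcodes were split at 10% and 30% mt- UMIs. Those at 30% or more made up 58.5% of the control, 59.9% of the runner and 73.9% of the aged barcodes, and held 79.1%, 84.8% and 90.03% of the mt- UMIs. A barcode under 10% carried a median of 68, 58 and 64 mt- UMIs, against 331, 365 and 402 at 30% or more. The makeup of the mt- UMIs was not used to form the bins. The share of these UMIs that came from free RNA in the droplets was not tested.

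mt-Atp8, a small subunit of ATP synthase, was the 1 member called between the bins. A member was called where the log2 ratio of its shares was at least 0.32 in size and the interval of the ratio left out 1, in the same direction in 3 of 3 libraries. In control its share was 3.87% (3.68 to 4.06) under 10%, 2.13% at 10 to 30% and 1.85% at 30% or more. In runner the shares were 2.77% (2.65 to 2.90), 1.39% and 1.09%, and in aged they were 3.34% (3.14 to 3.54), 2.17% and 1.92%. In each library mt-Atp8 was highest in the barcodes poorest in mt- UMIs. The share at 30% or more over that under 10% was 0.478 (0.453 to 0.505) in control, 0.393 (0.374 to 0.414) in runner and 0.577 (0.541 to 0.615) in aged, a mean log2 ratio of -1.07. An exact sign-flip test over 3 libraries cannot go below p = 0.25.

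Among 6626 genes that are not mt- genes, as shares of the non-mt UMIs, the same rule called 53% between these bins, 14.7% higher and 38.3% lower at 30% or more. So 1 call among 25 members is a smaller share than that background. The median log2 ratio was 0.02 over the 25 members and -0.78 over the other genes. The direction of the ratio was the same in all 3 libraries for 15 of 25 members.

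Along finer bins the share of mt-Atp8 was lower from each bin to the next in runner and control. In runner it was 4.29% in barcodes of at most 2.5% mt- UMIs, 2.91% from 2.5 to 5%, 2.01% from 5 to 10%, 1.53% from 10 to 20%, and 1.06% at 50% or more. In control it ran from 5.20% to 1.77% over the same bins, and in aged from 6.73% to 1.94%, where the bin from 40 to 50% was lower still at 1.87%. The lowest bin rests on 17 control and 22 aged barcodes. Counted against the non-mt UMIs, mt-Atp8 went the other way, from 1154 CPM in the lowest bin to 20943 CPM in the highest in control. On this scale mt- UMIs as a whole rise with the mt- share that defines the bins, so these values are given as a description.

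Other members had intervals on the same side of 1 in 3 of 3 libraries without passing the limit in each. mt-Cytb was 0.895, 0.781 and 0.793 times as high at 30% or more as under 10% in control, runner and aged, short of the limit in control alone. mt-Co3 was 0.755, 0.894 and 0.737 times as high, short of it in runner alone. mt-Rnr1, the rRNA of the small ribosome subunit, was 1.22, 1.59 and 1.31 times as high, short of the limit in control alone. mt-Co2 was 1.27, 1.247 and 1.26 times as high, just short of the limit in runner alone. Within complex IV, mt-Co2 and mt-Co3 thus lay on opposite sides. mt-Nd1 was 1.14, 1.07 and 1.10 times as high, and mt-Nd2 0.922, 0.895 and 0.908 times, short of the limit in each library. mt-Nd4 and mt-Nd5, both of complex I, lay between 0.957 and 1.03 in every library.

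**Figure D2:**
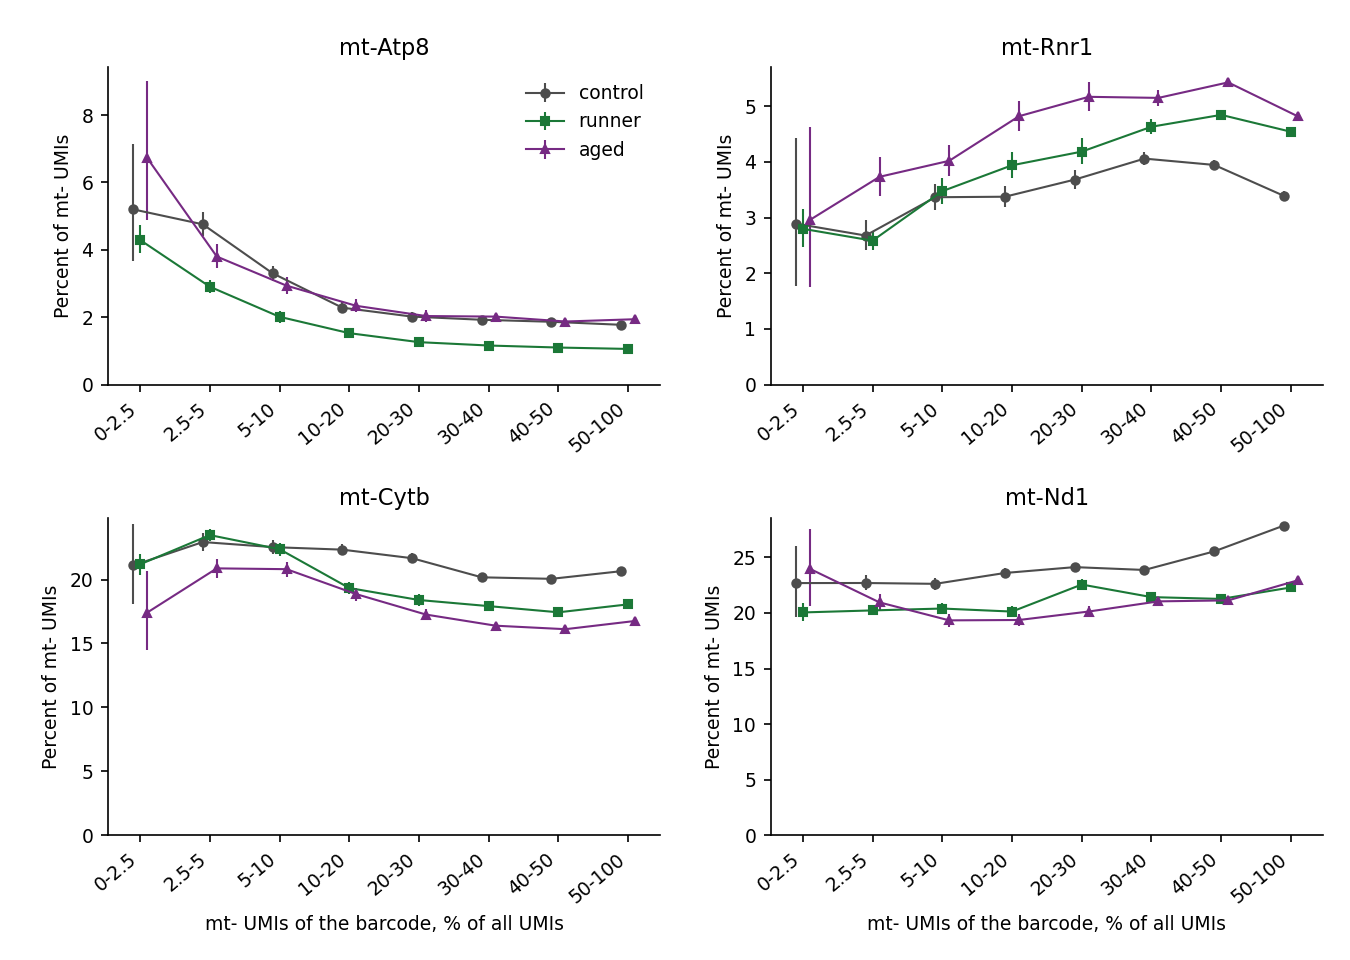
Share of mt-Atp8, mt-Rnr1, mt-Cytb and mt-Nd1 among mt- UMIs (y) in 8 bins of the mt- share of the barcode (x), with 95% counting intervals. mt-Atp8 lies between 4.29% and 6.73% in the lowest bin and between 1.06% and 1.94% in the highest.

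The bins also differed in the cells and RNAs they held. Nuclear-retained long noncoding RNAs, most of whose UMIs were of Malat1, summed to 87258, 88000 and 100353 CPM of the non-mt UMIs under 10%, and to 6997, 3649 and 5925 at 30% or more, in control, runner and aged. Of 9 of these RNAs that could be compared, 6 were called lower and 2 higher at 30% or more, and Malat1 had a mean log2 ratio of -4.49 and Gm42418 of 2.03. Neurite mRNAs such as Camk2a went from 4212, 3944 and 3751 CPM to 21953, 24680 and 21211. Dissociation stress genes such as Jun were called lower at 30% or more in 14 of 14 compared, against 38.3% of the other genes. Their median log2 ratio was -3.81. The 14 markers of microglia summed to 20667, 17373 and 24999 under 10% and 2820, 1703 and 2946 at 30% or more. The 14 markers of astrocytes went the other way, from 4095, 3660 and 4318 CPM to 10467, 11353 and 10336, as did the 18 markers of mature neurons, from 1853, 1973 and 1375 to 8213, 9253 and 7286. The neurite and mature neuron lists both hold Camk2a and Snap25, so their rises are not separate observations. Camk2a alone had 14903 UMIs over the libraries and a mean log2 ratio of 4.17. Barcodes rich in mt- UMIs were thus poor in Malat1 and microglial RNA and rich in neurite RNA, Camk2a included, and in the summed astrocyte markers. How far the other mature neuron markers rose without Camk2a was not tested, nor how far the other astrocyte markers rose without Slc1a2. mt-Atp8 was also the 1 member called within microglia-like barcodes alone and within astrocyte-like barcodes alone. The part of these other RNAs in its share was not tested. As a ratio to the geometric mean of the 16 members with at least 100 UMIs in each library, 2 members were called higher and 2 lower, mt-Atp8 again among the lower.

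Of 79 nuclear genes for subunits of complexes I to IV, cytochrome c and ATP synthase, 49 were called higher and 3 lower at 30% or more, with a median log2 ratio of 0.72, against 14.7% higher, 38.3% lower and a median of -0.78 over the other genes. The 3 with the most UMIs, Cox8a, Cox6a1 and Cox4i1 of complex IV, had mean log2 ratios of 3.49, 3.20 and 2.44. Genes for the upkeep, transcription and RNA handling of the mitochondrial genome were mostly too low to compare: 9 of 33 could be, of which 0 were higher and 4 lower, with a median of -0.68. Of 18 genes for outer membrane and import proteins that could be compared, 2 were higher and 7 lower, with a median of -0.57. Both lists lay near the other genes in their share of lower calls and in their medians.

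Cell types were called from clusters made without any mt- gene, so that the mt- makeup was not used for the names, each of which means "like" that type. They were microglia, astrocyte, neuroblast, oligodendrocyte, Cajal-Retzius, granule or other mature glutamatergic neuron, oligodendrocyte precursor and endothelial. The mature neuron cluster carried 17 of its 18 markers. Ccl4, Atf3 and Ccl3, genes of activated microglia, were among the leading genes of the larger microglia cluster, and 4 haemoglobin genes among those of the endothelial cluster, which held 51, 8 and 6 barcodes. The 4 unnamed clusters, 3 led by neurite genes such as Kif5a and Ddn and 1 by haemoglobin genes, held 51.1%, 57.3% and 64.3% of the barcodes and 69.6%, 80.8% and 79.5% of the mt- UMIs in control, runner and aged. Slc1a2, a marker on the astrocyte list, was among the leading genes of each unnamed cluster.

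The named classes differed in mt- share. The median mt- share of a barcode was 9.59%, 2.95% and 8.30% in microglia-like and 23.4%, 10.6% and 30.1% in astrocyte-like barcodes of control, runner and aged. In neuroblast-like barcodes, the immature neurons, it was 10.1%, 3.46% and 3.596%, with 17 aged barcodes. In the unnamed clusters it was 45.4%, 48.1% and 49.8%. The mt- share of each named class other than endothelial was lower in runner than in control.

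The makeup of the mt- UMIs differed little between the classes by the same rule. Each of 7 classes with at least 2000 mt- UMIs in every library was set against the other named classes of its library, and 1 pair of class and gene was called. Mature-neuron-like barcodes had a higher share of mt-Atp8, 3.16% (2.81 to 3.55) in control, 2.62% (2.31 to 2.97) in runner and 3.28% (2.57 to 4.11) in aged, which was 1.35, 1.41 and 1.47 times the other classes. In control the share was higher still in oligodendrocyte-precursor-like barcodes, at 3.33%, or 1.42 times the other named classes. That class stood at 0.876 times in runner and 1.12 times in aged, so it was not called. Neuroblast-like barcodes, with 1390 mt- UMIs in aged, were not among the 7 classes. The background of genes that are not mt- genes was 16.3% of 42945 pairs. Mature-neuron-like barcodes could be compared under 12 of 15 alternatives, and the call was made under 9. Of these, using all barcodes of the tables or a minimum of 20 UMIs left the compared barcodes and the ratios unchanged. Removing doublet calls or adding copies moved each ratio by little, so such settings were weak checks of the call. With clusters of a finer resolution the ratios were 1.28, 1.22 and 1.30, with means over barcodes 1.24, 1.24 and 1.58, and with barcodes called one by one 0.982, 0.803 and 0.887, which is the other direction. Under 10% alone the class held 14 aged barcodes with 1527 mt- UMIs, too few to compare, so the call was not tested there. Of the mature-neuron-like barcodes 44.9%, 85.3% and 87.5% lay under 10%.

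mt-Rnr1 was lowest in mature-neuron-like barcodes among the 7 classes compared, in each library. It took 2.85%, 2.37% and 3.32% of their mt- UMIs in control, runner and aged, or 0.867, 0.632 and 0.692 times the other named classes. mt-Rnr2 stood at 0.888, 0.718 and 0.673 times, and was lower still in endothelial-like barcodes in control and runner. The control ratios were within the limit, so neither was called. In microglia-like barcodes mt-Rnr1 stood at 1.05, 1.04 and 0.999 times and mt-Rnr2 at 1.06, 1.12 and 1.03 times.

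mt- protein UMIs were also set against the UMIs of the 79 nuclear respiratory chain genes in barcodes under 10%. Their ratio was highest in microglia-like barcodes, at 2.06 in control, 1.54 in runner and 2.18 in aged, among classes with at least 10 such barcodes. Nuclear chain UMIs were lowest in that class, at 18972, 15983 and 16580 CPM in control, runner and aged. Its mt- protein UMIs, at 39128, 24570 and 36099 CPM, were also the lowest of these classes in control and runner. The high ratio thus went with few nuclear chain UMIs, not with many mt- protein UMIs. The lowest ratios were 0.984 in mature-neuron-like barcodes of control, 0.830 in Cajal-Retzius-like barcodes of runner and 1.10 in oligodendrocyte-precursor-like barcodes of aged. This ratio moves with the mt- share that defines the bins and is given as a description.

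The comparison of runner with control asked how the makeup differed after 12 days with a wheel. Of 24 members that could be compared, 12 were called, 8 higher and 4 lower in runner, against 26.2% of 6114 other genes called, 19.1% higher and 7.11% lower. The median log2 ratio was 0.13 over the members and 0.11 over the other genes. mt-Atp6, mt-Co2, mt-Co3, mt-Nd3, mt-Ta, mt-Ti, mt-Tq and mt-Tv were higher, and mt-Co1, mt-Atp8, mt-Tf and mt-Tg were lower. As a ratio to the geometric mean, which took the 16 members with at least 100 UMIs in each library, 4 were called higher and 6 lower, with mt-Nd1, mt-Cytb, mt-Nd4 and mt-Nd5 among the lower.

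mt-Atp6 (chrM:7927-8607, plus strand) carried 28606 UMIs in control, 108268 in runner and 60059 in aged. Its share was 2.79 times as high in runner as in control (2.75 to 2.83). Since mt-Atp6 alone went from 4.79% to 13.4%, the other shares had to be lower on balance. ATP synthase genes together took 6.82% in control and 14.6% in runner, and complex IV genes 8.92% and 6.30%.

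The difference in mt-Atp6 was of like size in every bin and class examined. It was 2.71-fold (2.57 to 2.85) under 10%, 2.61-fold from 10 to 30% and 2.82-fold at 30% or more. Over the 8 named classes it ran from 2.36-fold to 3.01-fold, with intervals above 1 in 8 of 8. In microglia-like barcodes the share was 4.70% in control and 11.6% in runner, and in astrocyte-like barcodes 4.83% and 13.5%. With the UMIs of Gm10925 added, the ratio was 2.76. The copy held 456 UMIs in control and 605 in runner, so adding them could move the ratio little. Reads counted for neither gene nor copy cannot enter this sum, nor the sums of other genes with their copies.

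Barcode by barcode, the libraries were largely apart for mt-Atp6. Among barcodes with at least 100 mt- UMIs, 1844 in control, 2130 in runner and 1941 in aged, the median share was 4.76%, 13.4% and 7.23%. The value exceeded by 10.0% of control barcodes, 6.75%, was exceeded by 98.97% (98.4 to 99.4) of runner and 61.3% (59.1 to 63.5) of aged barcodes. Barcodes of 1 library are not replicates of a condition.

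**Figure D3:**
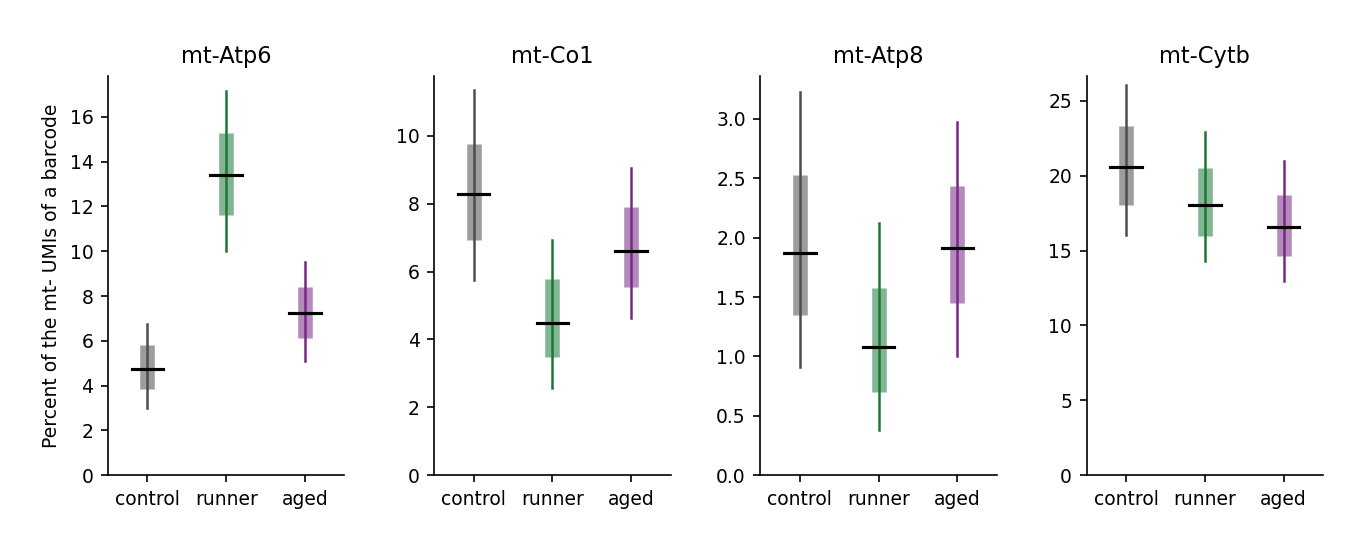
Share of mt-Atp6, mt-Co1, mt-Atp8 and mt-Cytb among the mt- UMIs of single barcodes with at least 100 mt- UMIs; black lines are medians, boxes the middle 50% and thin lines the 10th to 90th percentile. For mt-Atp6 the runner range from 10.0% to 17.1% lies above the whole control range of 3.01% to 6.75%.

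mt-Co1 (chrM:5328-6872, plus strand) went the other way within complex IV. It carried 50289 UMIs in control and 37939 in runner, a ratio of shares of 0.556 (0.549 to 0.564). The ratio was 0.578 under 10%, 0.580 from 10 to 30% and 0.552 at 30% or more, and below 1 in all 8 classes, from 0.409 to 0.692. With Gm29216 added it was 0.560. mt-Co1 was thus lower in runner in each bin and class compared.

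mt-Co2 (chrM:7013-7696) and mt-Co3 (chrM:8607-9390), the other complex IV genes, were higher in runner. mt-Co2 had 1569 UMIs in control and 7498 in runner, a ratio of 3.52 (3.34 to 3.72), and was seen in 44.0% and 74.7% of barcodes. mt-Co3 had 1348 and 5509 UMIs, a ratio of 3.01 (2.84 to 3.20). Both had intervals above 1 in 8 of 8 classes, and with their copies added the ratios were 3.39 and 2.79. The copies themselves were 1.69 times (1.36 to 2.11) as high for Gm28661 and 1.32 times (1.11 to 1.57) for Gm28437 per mt- UMI, while Gm10925 stood at 0.978 (0.865 to 1.11). Gm13341, the copy of mt-Co2 on chromosome 2, was lower in runner at 0.410 times (0.320 to 0.523), opposite to mt-Co2, and Gm29216 was higher at 1.41 times (1.20024 to 1.67), opposite to mt-Co1.

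mt-Nd3 (chrM:9459-9806) had a ratio of 4.41 (3.32 to 5.95) as listed, from 57 and 341 UMIs. The sum of mt-Nd3 and Gm28438 was 1.11% of mt- UMIs in control, 0.715% in runner and 0.920% in aged, which was lower in runner at 0.643 times (0.621 to 0.666). The direction for mt-Nd3 therefore depended on whether the copy was counted with it.

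mt-Atp8 was lower in runner, 1.2502% against 2.03% in control, at 0.617 times (0.601 to 0.634), although it shares an mRNA with mt-Atp6. It was called within each of the 3 bins, at 0.716, 0.651 and 0.589 times. In microglia-like barcodes, where 50.7% of control and 84.1% of runner barcodes lay under 10%, the ratio was 0.898 (0.821 to 0.981), which is no call, and with named classes alone the call was lost. Over the 8 classes the ratio ran from 0.479 to 0.900, with intervals under 1 in 6. How far reads in the overlap with mt-Atp6 were counted was not tested.

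The remaining protein genes and the rRNAs differed less between runner and control. mt-Nd1 had a ratio of 0.850, mt-Cytb of 0.883, mt-Nd4 of 0.942, mt-Nd5 of 0.951 and mt-Nd2 of 1.02. mt-Rnr1 had a ratio of 1.21 (1.19 to 1.23) and mt-Rnr2 of 1.05, and neither was called. Of 9 tRNA genes compared, 4 were higher and 2 lower: mt-Tv had 49 UMIs in control and 140 in runner, and mt-Tg had 105 and 44. These tRNA counts are small, and in microglia-like barcodes alone no tRNA gene reached 100 UMIs, so none could be tested there.

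**Figure D4:**
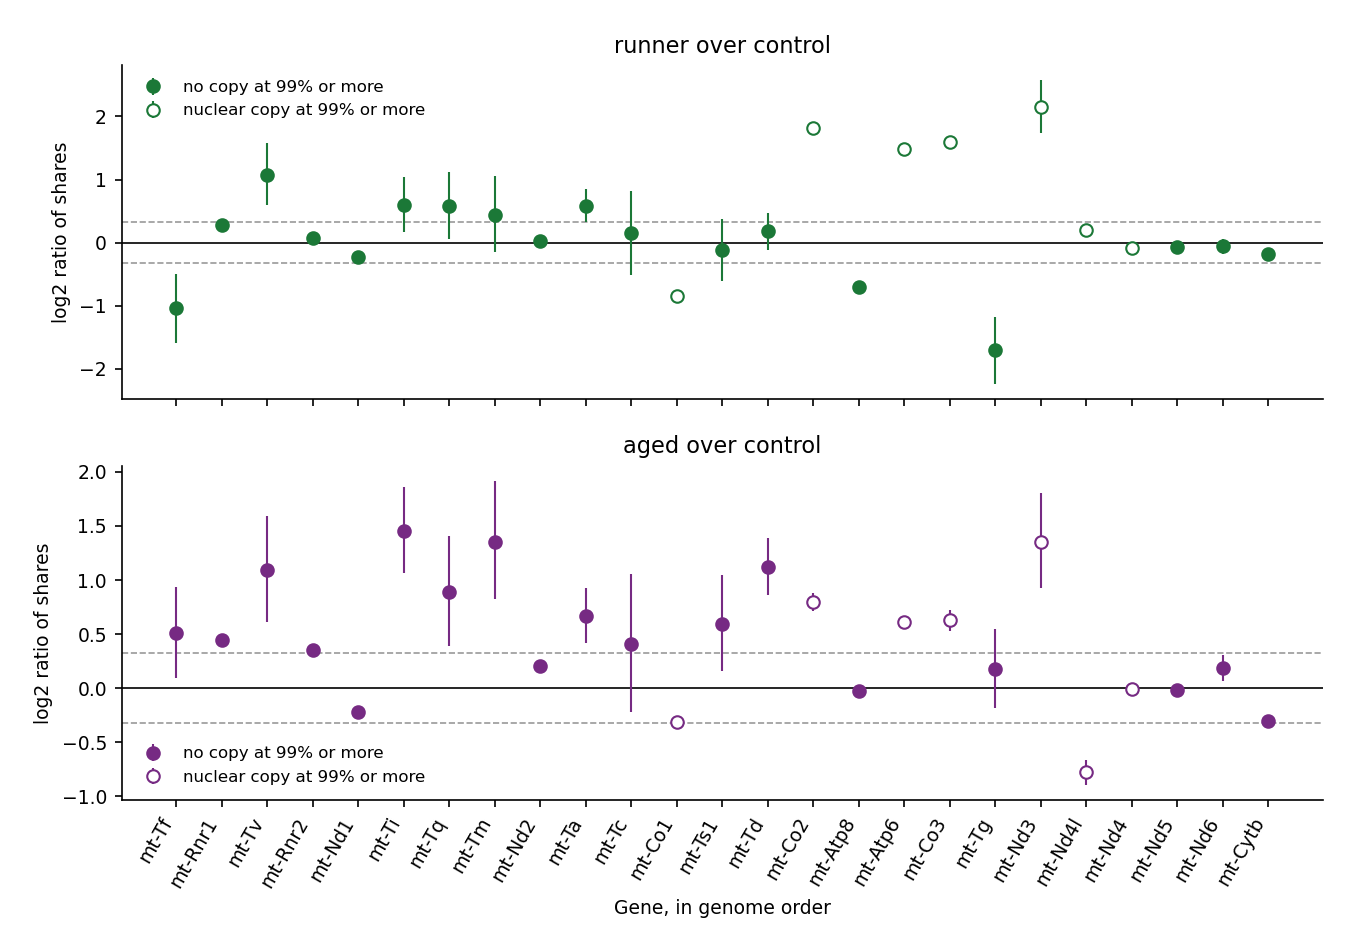
log2 ratio of the share of each member in runner (top) and aged (bottom) over control, in genome order, with 95% counting intervals; dashed lines mark the limit of a call and open points have a nuclear copy at 99% or more. In both panels mt-Co2, mt-Atp6, mt-Co3 and mt-Nd3, all open, lie above the upper line.

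The comparison of aged with control used the same control library, so its ratios are not independent of those above. Of 24 members compared, 15 were called, 14 higher and 1 lower in aged, against 22.4% of 4572 other genes called, 8.95% higher and 13.5% lower. The median log2 ratio was 0.47 over the members and -0.06 over the other genes. rRNA, tRNA and ATP synthase genes were each higher in summed share, and complexes I, III and IV lower. Complex IV genes together took 8.92% in control and 7.57% in aged, 0.849 times, although 2 of the 3, mt-Co2 and mt-Co3, were higher. As a ratio to the geometric mean of the same 16 members, 5 were called higher and 4 lower, and neither rRNA was among them.

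Both rRNAs were higher in aged. mt-Rnr1 (chrM:70-1024) took 3.71% (3.66 to 3.76) in control, 4.50% in runner and 5.04% (4.99 to 5.09) in aged, 1.36 times as high in aged as in control. It was called in each bin, at 1.253, 1.41 and 1.34 times, and its interval lay above 1 in 5 of 7 classes. mt-Rnr2 (chrM:1094-2675) was 1.28 times (1.26 to 1.29) as high, and 1.14 times (1.10 to 1.18) under 10%, which is no call. The higher rRNA share was thus smaller for mt-Rnr2 in the barcodes poorest in mt- UMIs.

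Of 9 tRNA genes compared, 8 were higher in aged and 0 lower. mt-Td had 160 UMIs in control and 479 in aged, a ratio of 2.17 (1.81 to 2.62). mt-Ti had 68 and 257 UMIs, a ratio of 2.74 (2.09 to 3.64), and mt-Tm 38 and 134. Under 10% each tRNA gene had fewer than 100 UMIs in these libraries, so none could be called. There mt-Td had 16 UMIs in control and 34 in aged, a ratio of 2.79 (1.496 to 5.40).

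mt-Atp6 was 1.52 times (1.502 to 1.55) as high in aged as in control, mt-Co2 1.74 times and mt-Co3 1.54 times. In microglia-like barcodes the ratios were 1.48, 1.84 and 1.52. mt-Atp6 lay above control in 7 of 7 classes, by 1.205-fold to 1.5996-fold, and below runner in 7 of 7. So the order control, aged, runner held for mt-Atp6 in each class with enough mt- UMIs in all 3 libraries, and in reverse for mt-Co1, where aged over control ran from 0.628 to 0.905.

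mt-Nd4l (chrM:9877-10173), a small membrane subunit of complex I, was the 1 member called lower in aged, with 1394 UMIs in control, 2164 in runner and 1120 in aged. Its share was 0.583 times (0.539 to 0.631) the control share, while mt-Nd4, which shares its mRNA, stood at 0.996 (0.986 to 1.01). Under 10% it rested on 41 aged and 78 control UMIs and its interval of 0.460 to 1.02 included 1. mt-Atp8 was level at 1.99% in aged and 2.03% in control, a ratio of 0.984 (0.961 to 1.01). mt-Cytb was lower at 0.809 times and mt-Co1 at 0.803 times, both just short of the limit, and mt-Nd1 at 0.859 times. With copies added, mt-Nd3 turned from 2.56 times to 0.827 times (0.7999 to 0.855).

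**Figure D5:**
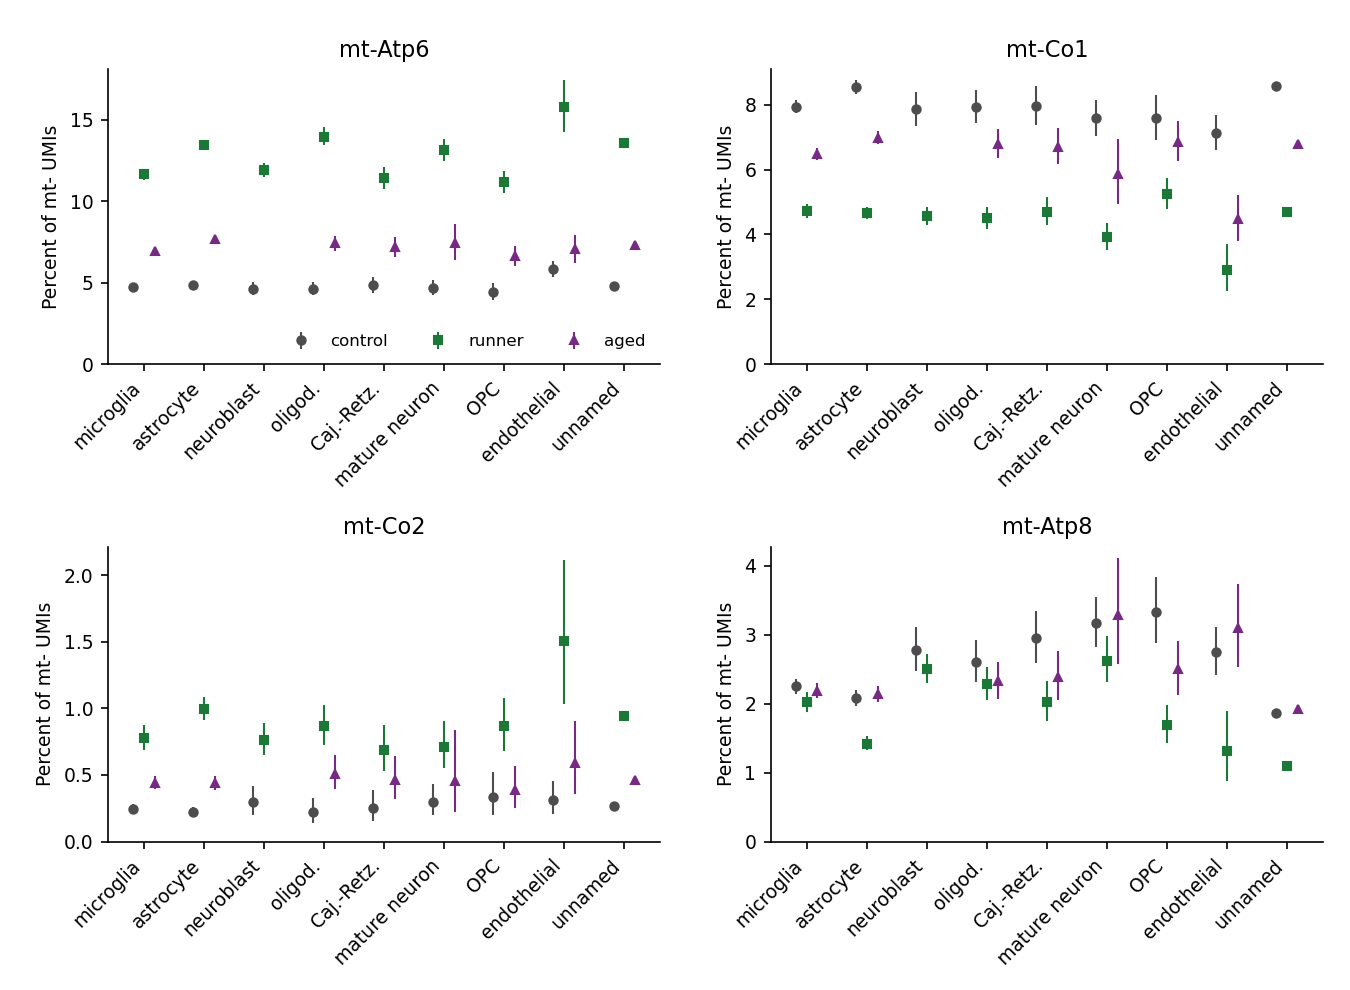
Share of mt-Atp6, mt-Co1, mt-Co2 and mt-Atp8 among the mt- UMIs of each named class and of the unnamed clusters, by library, with 95% counting intervals; a class is shown for a library with at least 2000 mt- UMIs (OPC, oligodendrocyte precursor; oligod., oligodendrocyte; Caj.-Retz., Cajal-Retzius). mt-Atp6 is highest in runner and lowest in control in all classes shown, and mt-Co1 the reverse.

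Nuclear genes of the respiratory chain were compared as shares of the non-mt UMIs. Of the 79 genes, 3 were higher and 4 lower in runner than in control, with a median log2 ratio of -0.04, and 3 higher and 10 lower in aged, with a median of -0.08. Over the other genes 19.1% were higher and 7.11% lower in runner, and 8.95% and 13.5% in aged, with medians of 0.11 and -0.06, so that in aged the list lay near that background in its share of lower calls and its median. Cox8a had log2 ratios of -0.37 in runner and 0.41 in aged, both called. Of the genes for mitochondrial genome upkeep, transcription and RNA handling, 1 of 7 compared was higher in runner and 1 of 6 lower in aged. Dissociation stress genes such as Jun were lower in 9 of 14 in aged and in 2 of 14 in runner, where 1 was higher, against 13.5% lower over the other genes in aged and 7.11% in runner. Their part in the mt- shares was not tested.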

How the data were processed

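The 3 tables hold raw UMI counts per gene symbol and barcode, deposited by the authors, 1 library per group. The submitters' processing notes name Cell Ranger 2.1.1, Seurat 3.1.0 and the build GRCm38. The sources used here give neither the annotation release nor the rule for calling cells. The deposited counts were whole numbers summing to 2330698 (control), 3808360 (runner) and 2537567 (aged) UMIs. Depth limits the tRNA genes and small classes most.

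Barcodes with at least 200 genes were kept. mt- UMIs were summed over barcodes, and shares were given exact Clopper-Pearson 95% intervals and ratios exact conditional binomial ones. A gene with at least 100 UMIs was called at a log2 ratio of at least 0.32 in size with an interval leaving out 1 (in 3 of 3 libraries for bins and classes); the rule was tested on simulated counts. These intervals cover counting error only.

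Clusters were made without mt- genes (counts scaled to 10000, 2000 variable genes, 30 principal components, 15 neighbours, Leiden resolution 1; Scanpy 1.11.5, leidenalg 0.10.2). A cluster was named for a list of which at least 50% and 3 markers were found in 10% of its barcodes and at 2-fold, with a mean log2 fold of at least 1; these thresholds were set after seeing the data. The erythroid list was not used as a name, so the cluster led by haemoglobin genes stayed unnamed. A shallow cluster without a marker among its 10 leading genes was also to stay unnamed. Of 7532 barcodes 3200 were named. Scrublet, run per library at an expected rate of 0.05, called 7 doublets (0.0434%, 0.0338% and 0.220% of barcodes), too few for a working caller, and doublets were kept. Copies were found with BLAST 2.17.0 on GENCODE M21 transcripts, at 90% identity or more. Python 3.11.15, NumPy 2.4.6, SciPy 1.17.1 and pandas 2.3.3 were used.

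Every mt- symbol was a member; of each list of other genes at most the 3 with the most UMIs were named. The members and lists were chosen with earlier results of these data known. The alternatives changed the gene filter, doublets, pooling, denominator, UMI minimum, bins, clusters, reference group and counting of copies; the last, with named classes alone, astrocyte-like barcodes alone and classes under 10% alone, was chosen after seeing the data.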

Additional observations from a re-analysis of the deposited data

How the results depend on the processing

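No paired analysis was possible because each group has 1 library. The call of mt-Atp8 between bins was made under all 13 alternatives. The alternative with a minimum of 20 UMIs could only add members, so it could not undo a call in any comparison. The number of members called between bins was 1, and 2 with all barcodes of the tables, 2 with at least 500 genes, 2 with bins under 5% and at 50% or more, 3 with means over barcodes, 3 without mt-Nd1 and 4 as a ratio to the geometric mean, the added genes being mt-Rnr1, mt-Co2 and tRNA genes. Between classes it was 1, and 2 with at least 500 genes, 3 with means over barcodes, 4 as a ratio to the geometric mean, and 0 at resolution 2.0. It was also 0 for clusters under 10% alone, for barcodes under 10% alone and for barcodes at 30% or more alone, where the mature-neuron class held too few mt- UMIs to enter, so that its call could not be tested. With barcodes called one by one, mt-Atp8 was called in microglia-like barcodes instead.

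In runner 12 members were called, and 6 with at least 500 genes, 5 under 10% alone, 5 from 10 to 30% alone, 5 with named classes alone and 4 in microglia-like barcodes alone. In aged 15 were called, and 8 with at least 500 genes, 9 as a ratio to the geometric mean, 5 under 10% alone, 6 from 10 to 30% alone, 5 in microglia-like barcodes alone and 8 with named classes alone. Many of these numbers are lower because members fell under 100 UMIs: of the 12 called in runner, 6 could be tested with at least 500 genes, 6 with named classes, and 5 under 10%, from 10 to 30% and in microglia-like barcodes, and all but mt-Atp8 in microglia-like barcodes and in named classes were called the same way. Of the 15 called in aged, 6 to 8 could be tested in these subsets, and 4 to 8 were called the same way. The cause of the other differences was not tested. Means over barcodes and geometric-mean ratios were called without an interval. In runner mt-Atp6, mt-Co1, mt-Co2 and mt-Co3 were called the same way under 14 of 15 alternatives, the exception being the one that leaves them out. With the copies added, the log2 ratio of mt-Nd3 turned to -0.63 in runner and -0.27 in aged. Against aged in place of control, runner had log2 ratios of -0.084 for mt-Ta, -0.85 for mt-Ti, -0.31 for mt-Tq and -0.018 for mt-Tv. Against runner in place of control, aged had log2 ratios of -0.87 for mt-Atp6, -1.02 for mt-Co2, -0.97 for mt-Co3 and -0.79 for mt-Nd3.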
